A study of Mus musculus with 17 samples.

Results

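Colq, Htra4, Susd2, Nptx1, Mansc1, Dync2li1 and Sat2 are 7 of 41388 annotated mouse genes counted in cultured macrophages and pre-osteoclasts (preOCs) that carry or lack Bap1. They were chosen by their measured expression in preOCs and BMMs, as genes with a strong difference between genotypes, with 4 genes higher (Colq, Htra4, Susd2, Nptx1) and 3 lower (Mansc1, Dync2li1, Sat2) in Bap1-deleted cells. The difference between genotypes chose them, so it is given below as a description with no test. The choice names the genes and states no numerical threshold.

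The 17 poly-A selected RNA-seq libraries fell into 4 groups. Bone marrow macrophages (BMMs) grown with M-CSF, the survival and growth factor of macrophages, gave 3 Bap1flox and 3 Bap1LysM libraries. BMMs that also received 100 ng/ml RANKL, the cytokine that drives osteoclast formation, for 24 h gave 6 Bap1flox and 5 Bap1LysM libraries, labelled osteoclast and called preOCs here. Cells of all groups carried floxed Bap1 alleles, and the Bap1LysM cells also carried Cre recombinase in the Lyz2 (lysozyme M) locus, which is active in myeloid cells in general and not in osteoclasts alone. The preOC libraries came from 20-week-old male mice. No Cre-bearing control without a floxed Bap1 allele was analysed here, so Bap1 loss and the Cre allele cannot be told apart.

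BAP1 is a deubiquitinase that removes ubiquitin from histone H2A, a mark laid down by Polycomb complexes on repressed genes. Loss of such an enzyme can accompany both loss and gain of gene activity. None of the 7 genes is a classical osteoclast gene, and most are better known from other tissues. Colq encodes the collagen-like tail that anchors acetylcholinesterase at the neuromuscular junction. Nptx1 encodes neuronal pentraxin 1, a secreted protein of synapses. Htra4 encodes a secreted serine protease, and Susd2 a membrane protein with a sushi domain. Mansc1 encodes a membrane protein with a MANSC domain, Dync2li1 a light intermediate chain of the dynein-2 motor that returns cargo from the tip of the primary cilium, and Sat2 a diamine acetyltransferase related to the polyamine enzyme encoded by Sat1.

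The genes lay on 6 chromosomes of the GRCm38 assembly, and all are protein coding. Colq spanned chr14:31523082-31591343 on the minus strand with 22 exon blocks. Its lowest coordinate was 271.632 kb from that of Bap1, the floxed gene, which lay at chr14:31251450-31259944 on the plus strand. Starts and distances of genes, here and below, are taken at the lowest coordinate of each gene, whatever its strand. Colq shared 199 exonic bases with Hacl1, its neighbour on the same strand. Htra4 lay at chr8:25025451-25038962 on the minus strand with 9 exon blocks, and 792 of its exonic bases overlapped the long non-coding RNA gene Gm16933 on the plus strand. The strand setting of the counting was not given, and Gm16933 itself had 0 mean CPM in Bap1flox preOCs. Susd2 lay at chr10:75636619-75644008 on the minus strand with 15 exon blocks. It shared its chromosome with the Lyz2 gene that holds the Cre, with a signed distance between the 2 starts of -41.6 Mb. Nptx1 lay at chr11:119538719-119547753 on the minus strand with 5 exon blocks, and Mansc1 at chr6:134609210-134632488 on the minus strand with 4. Dync2li1 lay at chr17:84626496-84655558 on the plus strand with 13 exon blocks. Sat2 lay at chr11:69622024-69623870 on the plus strand with 5 exon blocks.

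Sat2 was the 1 gene of the 7 matched in the RefSeq promoter table (GRCm38.p6). Its promoter is printed because genes around Sat2 were also lower, as given further on. The window runs from 250 bases before to 50 bases after the RefSeq start, chr11:69621802-69622101 on the plus strand, with CpG dinucleotides in capitals.
Sat2: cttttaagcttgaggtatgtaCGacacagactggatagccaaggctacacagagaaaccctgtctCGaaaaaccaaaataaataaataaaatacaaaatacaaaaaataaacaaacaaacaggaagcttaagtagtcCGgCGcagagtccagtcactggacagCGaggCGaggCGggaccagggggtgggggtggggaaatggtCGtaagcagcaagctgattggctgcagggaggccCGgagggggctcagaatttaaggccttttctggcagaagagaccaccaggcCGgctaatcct
The window held 10 CpG dinucleotides, against a median of 7 over 32851 promoters, and 56.5% of promoters held fewer. Its G+C content was 49.7%. None of 4 motifs searched on both strands was found. These were TATAAA (in 13.6% of all promoters), TGANTCA (7.81%), CACGTG (7.15%) and GAGGAAGT (3.20%).

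Library totals ranged from 37967542 to 61369441 counts, and the deposited CPM, the count scaled to a common library total, is used for levels below. The summed level of 10 osteoclast markers was 231 to 352 CPM in BMM libraries and 5917 to 17563 CPM in preOC libraries, and all 8 macrophage markers were detected in every group. Calcr, the calcitonin receptor, was at 0 in Bap1LysM BMMs. Bap1 itself was 82.1 to 84.4 CPM in Bap1flox BMMs and 74.8 to 77.1 in Bap1LysM BMMs. In preOCs it was 70.3 to 97.1 CPM in Bap1flox and 55.9 to 87.7 in Bap1LysM. The Bap1 count adds reads over the whole gene, deleted part and retained part together, and the log2 difference was -0.22 in preOCs (edgeR adjusted p = 0.18) and -0.11 in BMMs (adjusted p = 0.34). Bap1 was lower in Bap1LysM in 5 of 5 same-numbered preOC pairs and 3 of 3 BMM pairs, and in BMMs the groups did not overlap. With the replicate block the edgeR adjusted p was 0.059 in preOCs and 0.32 in BMMs, and with voom it was 0.0037 and 0.21. The Lyz2 count, which the Cre allele interrupts, set 2 libraries apart: Bap1LysM preOC 1 had 6715 CPM and Bap1LysM BMM 1 had 8722 CPM, while the other Bap1LysM libraries had 13.6 to 39.0 CPM and Bap1flox libraries 7187 to 21838 CPM. PreOC replicates 4 to 6 had 2.36 to 5.26% of counts on mitochondrial genes, against 0.481 to 1.07% in replicates 1 to 3 of the preOC groups. The share also moved with genotype and was higher in Bap1LysM in all 5 same-numbered preOC pairs, with 1.02 and 0.667% in pair 1, 1.07 and 0.481% in pair 2, 3.38 and 2.84% in pair 4, 3.71 and 2.36% in pair 5, and 5.26 and 3.64% in pair 6. Its part in the genotype differences below was not tested.

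Across all genes, edgeR's quasi-likelihood test with a Benjamini-Hochberg adjusted p under 0.05 called 2043 of 12929 genes between genotypes in preOCs, 7.12% of genes higher and 8.68% lower in Bap1LysM. In BMMs it called 693 of 13028, 1.31% higher and 4.01% lower. With the replicate number as a block the counts were 4236 and 2107. Libraries that moved the preOC count by over 1.5 times when left out were Bap1flox preOC 5 (1333 genes), Bap1LysM preOC 1 (3085), Bap1LysM preOC 4 (1074) and Bap1LysM preOC 5 (1071). In BMMs they were Bap1flox BMM 1 (298), BMM 2 (7) and BMM 3 (4), and Bap1LysM BMM 1 (369) and BMM 2 (84).

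Colq was nearly silent in control cells and present at a low level in Bap1LysM preOCs. In Bap1flox preOCs its CPM had a lowest value of 0, a median of 0.0433 and a highest value of 0.116, from 0 to 6 reads per library. In Bap1LysM preOCs the 5 libraries gave 1.31, 2.03, 2.36, 1.95 and 2.26 CPM, from 68 to 145 reads. The lowest of these was the library that kept Lyz2 counts, and it still stood above every control library. The mean was 1.98 ± 0.411 CPM (SD, n = 5) against 0.0512 ± 0.0498 (n = 6), a ratio of 38.8. The log2 difference was 5.31, the highest of the 12929 genes, with a standard error (SE) of 0.55. This SE, here and below, is approximate and taken from edgeR's test statistic. In bulk RNA, more cells with a transcript and more transcript per cell cannot be told apart, here and for every gene below.

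In BMMs Colq was low in both genotypes. Bap1flox BMMs gave 0.148, 0.131 and 0.156 CPM, and Bap1LysM BMMs gave 0.0448, 0.265 and 0.611 CPM. The genotypes overlapped, since Bap1LysM BMM 1, which kept Lyz2 counts, was below all 3 controls and the others above. Colq did not pass the filter on low counts in BMMs, which asked for more than 1 CPM in at least 2 of 6 libraries. Fitted without that filter, the log2 difference was 1.09 (SE 0.78).

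Htra4 had the third highest difference in preOCs, but its level depended on the library set. Bap1flox preOCs had a lowest value of 0.0416, a median of 0.107 and a highest value of 0.276 CPM. Bap1LysM preOCs gave 1.02 and 1.05 CPM in replicates 1 and 2, and 4.22, 4.14 and 3.65 CPM in replicates 4, 5 and 6. All 5 were above all 6 controls, and replicates 4 to 6 were above replicates 1 and 2. The means were 2.82 ± 1.64 CPM (SD, n = 5) and 0.129 ± 0.0810 (n = 6), a ratio of 21.8, with a log2 difference of 4.52 (SE 0.55).

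Unlike Colq, Htra4 was already higher in Bap1LysM BMMs. Bap1flox BMMs gave 0.480, 0.153 and 0.273 CPM, and Bap1LysM BMMs gave 1.52, 0.685 and 0.917 CPM. The genotypes did not overlap, but the gene did not pass the filter in BMMs. The unfiltered log2 difference was 1.79 (SE 0.50).

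Susd2 separated the genotypes in preOCs and not in BMMs. Bap1flox preOCs had a lowest value of 0.443, a median of 0.775 and a highest value of 1.98 CPM. Bap1LysM preOCs gave 29.9, 16.9, 18.3, 11.4 and 11.7 CPM. The library that kept Lyz2 counts was the highest of these. The means were 17.6 ± 7.49 CPM (SD, n = 5) and 1.07 ± 0.683 (n = 6), a ratio of 16.5 and a log2 difference of 4.14 (SE 0.43), the seventh highest of all genes.

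Before RANKL, Susd2 was 0.572, 2.23 and 1.83 CPM in Bap1flox BMMs and 1.39, 1.83 and 2.58 CPM in Bap1LysM BMMs. These ranges overlapped, and the log2 difference was 0.35 with an SE of 0.50. Without single BMM libraries it ran from -0.05 to 0.70.

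Nptx1 was the most abundant of the 7 genes in Bap1LysM cells and was higher at both stages. Bap1flox BMMs gave 8.82, 3.80 and 3.59 CPM, and Bap1LysM BMMs gave 94.4, 154 and 64.1 CPM. Every Bap1LysM library exceeded every control by a wide margin, with a ratio of means of 19.3 and a log2 difference of 4.27 (SE 0.48), the second highest of the 13028 genes fitted in BMMs. In preOCs the controls had a lowest value of 13.0, a median of 17.9 and a highest value of 38.1 CPM, and Bap1LysM libraries gave 152, 164, 88.2, 95.0 and 92.7 CPM. The groups were again apart, with a ratio of 5.88 and a log2 difference of 2.64 (SE 0.28), rank 33 from the highest. In both genotypes, replicates 1 and 2 were above replicates 4 to 6.

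Mansc1 had the lowest fitted difference of all genes in preOCs. Bap1flox preOCs had a lowest value of 1.82, a median of 2.66 and a highest value of 3.53 CPM. Bap1LysM preOCs gave 0.367, 0.237, 0.407, 0.214 and 0.101 CPM, from 4 to 25 reads. No library of either group entered the range of the other. The means were 0.265 ± 0.123 CPM (SD, n = 5) and 2.76 ± 0.687 (n = 6), so controls were 10.4 times higher, and the log2 difference was -3.27 (SE 0.35).

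The same gene was low in Bap1LysM BMMs. Controls gave 3.28, 3.41 and 3.20 CPM, and Bap1LysM BMMs gave 0.627, 0.751 and 0.325 CPM. Control BMMs agreed closely with one another, and the log2 difference was -2.53 (SE 0.32), the tenth lowest in BMMs. Relative to the control mean of the same stage, Mansc1 in Bap1LysM libraries ran from 9.85 to 22.8% in BMMs and from 3.65 to 14.8% in preOCs.

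Dync2li1 was lower in Bap1LysM cells and also lower in preOCs than in BMMs. Bap1flox BMMs gave 5.50, 5.07 and 5.32 CPM, and Bap1LysM BMMs gave 1.43, 1.77 and 1.34 CPM. The log2 difference in BMMs was -1.79 (SE 0.18), with no overlap. In preOCs the controls had a lowest value of 1.58, a median of 1.93 and a highest value of 2.66 CPM, and Bap1LysM libraries gave 0.675, 0.369, 0.196, 0.250 and 0.252 CPM. The library that kept Lyz2 counts was the highest of the Bap1LysM preOCs, at 34.0% of the control mean, while the others were at 9.85 to 18.6%. The log2 difference in preOCs was -2.43 (SE 0.33), the fifth lowest.

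Sat2 was a low gene in every group and was lower still in Bap1LysM cells. Bap1flox preOCs had a lowest value of 1.08, a median of 1.46 and a highest value of 1.65 CPM. Bap1LysM preOCs gave 0.367, 0.474, 0.196, 0.179 and 0.201 CPM, from 8 to 19 reads. Here too replicates 4 to 6 were below replicates 1 and 2. Controls were 5.03 times higher, and the log2 difference was -2.27 (SE 0.29), the eighth lowest. In BMMs the controls gave 0.830, 2.25 and 1.29 CPM and Bap1LysM libraries 0.492, 0.618 and 0.439 CPM. The control BMMs were spread widely but did not overlap the Bap1LysM BMMs, with a log2 difference of -1.47 (SE 0.41).

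**Figure D1:**
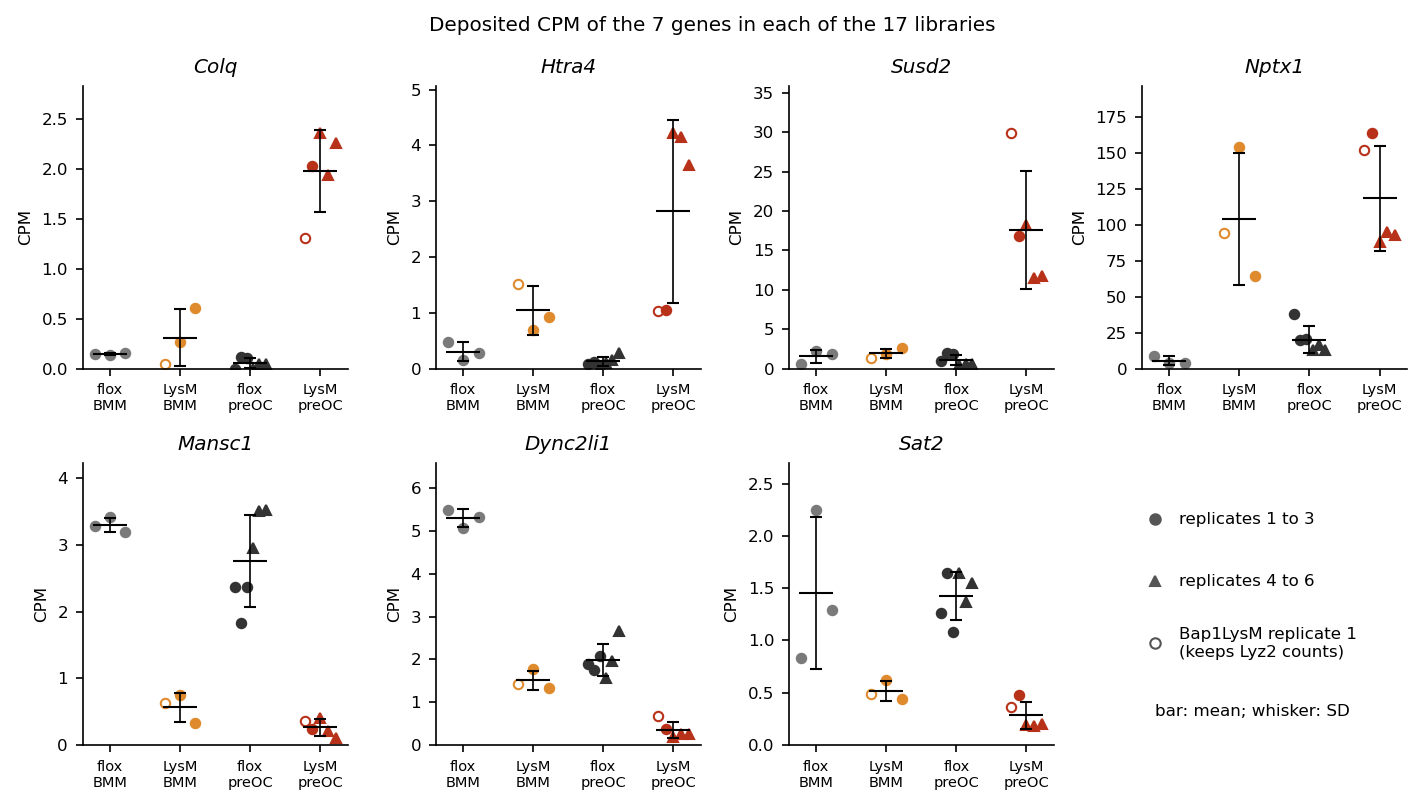
Deposited CPM of each gene (y axis, linear, own scale per panel) in the 4 groups, 1 point per library, with the mean as a bar and the SD as a whisker; circles are replicates 1 to 3, triangles replicates 4 to 6, and open circles the 2 libraries that kept Lyz2 counts. The Bap1LysM preOCs lie apart from the Bap1flox preOCs for all 7 genes, and in BMMs the genotypes overlap for Colq and Susd2.

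The 7 genes passed the filter in preOCs, where it asked for more than 1 CPM in at least 4 of 11 libraries. Colq and Htra4 were above 1 CPM in 0 of 6 Bap1flox and 5 of 5 Bap1LysM preOCs. Mansc1, Dync2li1 and Sat2 were above it in 6 of 6 Bap1flox and 0 of 5 Bap1LysM preOCs. These genes thus passed only through the group where they are higher, and their ranks among fitted genes share this limit. The 4 higher genes and the 3 lower genes did not overlap between genotypes in preOCs. Over all genes, 2.63% lay apart in the higher direction and 7.67% in the lower direction, but that separation is what selected the 7. In BMMs 5 of the 7 were fitted. Nptx1, Mansc1, Dync2li1 and Sat2 did not overlap there, and Susd2 did. The share of all genes apart in BMMs was 13.6% higher and 19% lower.

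The preOC libraries numbered 1 to 3 and those numbered 4 to 6 gave the same direction for every gene, with different sizes. For Colq the log2 difference was 4.51 in the first set and 6.31 in the second. In the same order it was 3.71 and 4.58 for Htra4, 3.99 and 4.73 for Susd2, and 2.68 and 2.76 for Nptx1. The lower genes also differed more in the second set, with -2.72 and -3.64 for Mansc1, -1.73 and -3.09 for Dync2li1, and -1.57 and -2.92 for Sat2. The first set held 2 Bap1LysM preOC libraries, one of which kept Lyz2 counts, and the part of that library and of mitochondrial counts in these sizes was not tested.

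**Figure D2:**
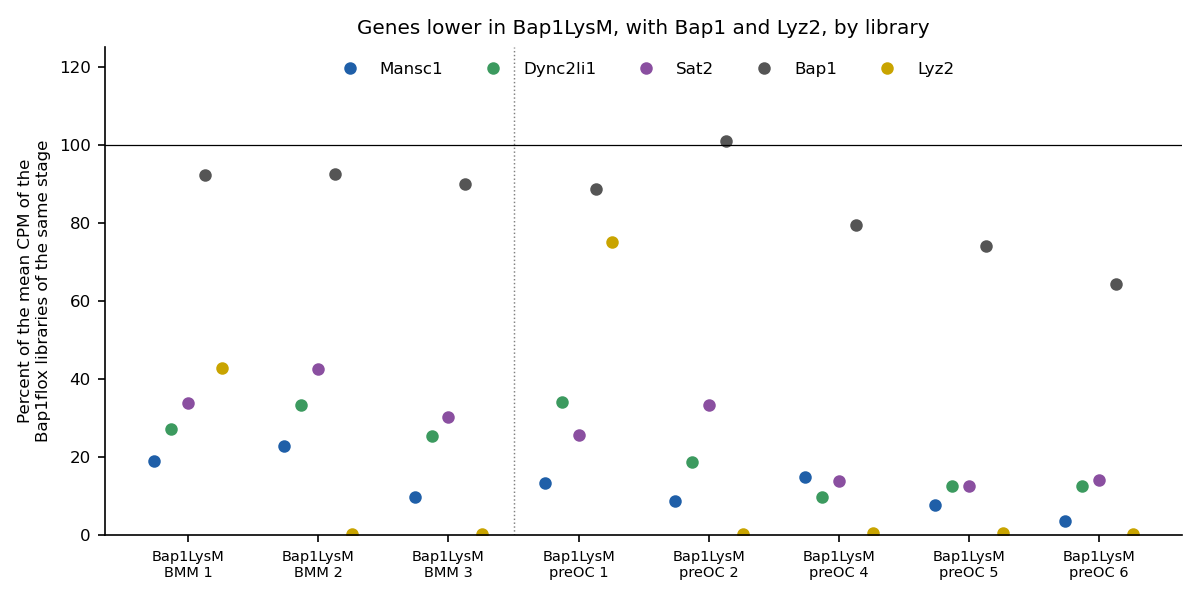
CPM of Mansc1, Dync2li1 and Sat2, with Bap1 and Lyz2, in each Bap1LysM library, as a percentage of the mean of the Bap1flox libraries of the same stage (y axis). The 3 lower genes lie between 3.65 and 42.5% in all 8 libraries, also in the 2 that kept Lyz2 counts.

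The RANKL response was compared between preOCs and BMMs of one genotype, in replicates 1 to 3 of all groups fitted together. This contrast shares its preOC libraries with the one that chose the genes, so the 7 genes are again described and not tested. Over all genes, 29.4% were called higher and 28.7% lower after RANKL in Bap1flox cells. In Bap1LysM cells 21.2% were called higher and 17.7% lower. Colq had opposite signs in the 2 genotypes, and the other genes are given in turn.

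Colq was lower after RANKL in Bap1flox cells, with a log2 difference of -1.11 (SE 0.94), and higher in Bap1LysM cells, at 2.30 (SE 0.74). Without single libraries these values ran from -1.58 to -0.57 and from 1.82 to 3.31. All 3 Bap1flox preOCs of this set were below all 3 Bap1flox BMMs, and both Bap1LysM preOCs were above all 3 Bap1LysM BMMs. Susd2 differed by -0.12 (SE 0.48) in Bap1flox cells and by 3.52 (SE 0.52) in Bap1LysM cells. The Bap1flox value of Susd2 ran from -0.52 to 0.23 without single libraries, so its sign was not settled. The Bap1LysM value of Susd2 ran from 2.96 to 3.92 without single libraries, and was 2.79 without both libraries that kept Lyz2 counts.

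Htra4 was lower after RANKL in control cells. Its difference was -2.04 (SE 0.59) in Bap1flox cells and -0.12 (SE 0.49) in Bap1LysM cells, with both Bap1LysM preOCs of this set inside the range of the Bap1LysM BMMs. The Bap1LysM value ran from -0.39 to 0.30 without single libraries, and was 1.42 in the fit over all 17 libraries, which added the preOC replicates 4 to 6 where Htra4 was highest. The Bap1flox value ran from -2.37 to -1.53 without single libraries and was -1.34 in that fit.

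Nptx1 was higher after RANKL in Bap1flox cells by 2.09 (SE 0.43) and by 0.51 (SE 0.45) in Bap1LysM cells, whose BMMs were already high. The Bap1LysM value of Nptx1 ran from 0.25 to 0.83 without single libraries. The 3 lower genes had negative values in both genotypes. Mansc1 differed by -0.77 (SE 0.29) and -0.96 (SE 0.39), Dync2li1 by -1.65 (SE 0.23) and -1.59 (SE 0.29), and Sat2 by -0.30 (SE 0.35) and -0.40 (SE 0.44). Dync2li1 preOCs did not overlap BMMs in either genotype, Mansc1 lay apart in Bap1flox and overlapped in Bap1LysM cells, and Sat2 overlapped in both. The Bap1flox value of Mansc1 was -0.36 in the fit over all 17 libraries. The Bap1LysM value of Dync2li1 was -2.19 without Bap1LysM preOC 1, which kept Lyz2 counts, -1.19 without Bap1LysM preOC 2 and -2.15 in the fit over all 17 libraries. The Bap1flox value of Sat2 was 0.14 without Bap1flox BMM 2, and its Bap1LysM value was -0.93 in the fit over all 17 libraries.

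**Figure D3:**
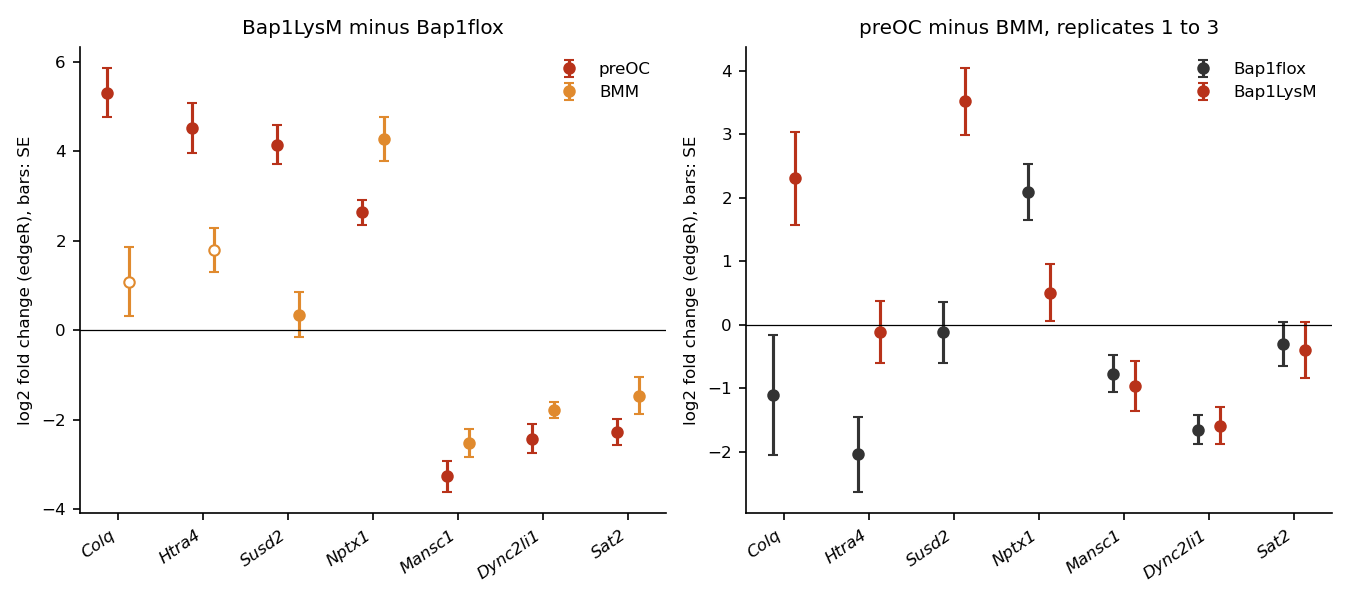
Log2 fold changes with SE (y axis) of the 7 genes between genotypes, left, and between preOCs and BMMs of each genotype in replicates 1 to 3, right; open points are genes fitted without the filter on low counts. Colq and Susd2 have genotype differences of 5.31 and 4.14 in preOCs, and RANKL differences of 2.30 and 3.52 in Bap1LysM cells against -1.11 and -0.12 in Bap1flox cells.

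Per transcript length (RPKM, the CPM per kb of transcript), the order of the genes changed with genotype. The genes were chosen by their genotype difference, so a change of order follows from the choice, and the levels are a description. In Bap1flox BMMs Dync2li1 led at 4.00 ± 0.163 RPKM (SD, n = 3), above Mansc1 at 1.39 ± 0.0447, with no overlap. Mansc1, Nptx1, Sat2, Susd2 and Htra4 followed, each overlapping the next, and Colq was last at 0.0381 ± 0.00333. In Bap1LysM BMMs Nptx1 led with 12.3 to 29.5 RPKM over 3 libraries, above Dync2li1 at 1.14 ± 0.171.

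In Bap1flox preOCs Nptx1 led at 3.86 ± 1.80 RPKM (SD, n = 6), and Dync2li1, Mansc1 and Sat2 followed at 1.50, 1.16 and 1.00 RPKM, with Mansc1 overlapping both others and Dync2li1 above Sat2 in every library. Susd2, Htra4 and Colq lay lowest at 0.329, 0.0718 and 0.0135 RPKM. In Bap1LysM preOCs the 4 higher genes had the 4 highest means, with Colq overlapping Dync2li1 below it. Nptx1 had 22.7 ± 6.97 RPKM (n = 5), Susd2 5.42 ± 2.30, Htra4 1.57 ± 0.913 and Colq 0.521 ± 0.108. Dync2li1, Sat2 and Mansc1 were last at 0.263, 0.199 and 0.112 RPKM, with each neighbour in the order overlapping.

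The levels of markers of other cell types are given beside these genes, since several of the 7 are known from muscle or nerve. Of 6 skeletal muscle markers, none averaged above 1 CPM in any group, and their sum was 0.881 to 2.11 CPM in Bap1flox preOCs and 1.16 to 1.76 in Bap1LysM preOCs. Ckm and Myh4 were at 0 in Bap1flox BMMs. The sum of 6 neuronal markers was 1.59 to 15.3 CPM in Bap1flox preOCs and 1.32 to 9.51 in Bap1LysM preOCs, so both lists overlapped between genotypes where Colq and Nptx1 did not. Snap25 and Stmn2 were at 0 in Bap1flox BMMs, Syt1 and Nefl in Bap1LysM BMMs, and Nefl in Bap1flox preOCs.

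Markers of some blood cells had higher upper values in Bap1LysM preOCs, with no test run. The sum of 8 neutrophil markers was 166 to 582 CPM against 66.8 to 182 in Bap1flox preOCs. That of 6 B and plasma cell markers was 5.90 to 10.3 against 2.11 to 4.32 CPM, and that of 6 dendritic cell markers was 5.33 to 10.8 against 3.09 to 5.80 CPM. The B and plasma cell sums lay apart, and the neutrophil and dendritic sums overlapped. All markers of these lists were detected in both groups. Stromal markers summed to 94.5 to 1339 CPM in Bap1LysM and 178 to 2124 in Bap1flox preOCs, with Lum at 0 in both BMM groups. The part of these cells in the levels of the 7 genes was not tested.

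The genomic neighbours of the 7 genes were not used to choose them, and their tests are given. Of 103 fitted genes that started within 500 kb of one of the 7, 12 rose and 13 fell in Bap1LysM preOCs, 24.3% in all, against 7.12% and 8.68% of all genes in each direction. In BMMs 3 of 103 rose and 9 fell, 11.7% in all, against 1.31% and 4.01%. With the replicate block, 22 rose and 18 fell in preOCs, 38.8% in all against 32.8% of all genes, and 5 rose and 19 fell in BMMs, 23.3% against 16.2%. In preOCs the share of called neighbours was thus nearer to that of all genes than in the fit without the block, at 24.3% against 15.8%. The neighbour count in preOCs was 16 without Bap1flox preOC 2, preOC 3 or Bap1LysM preOC 6, 14 without Bap1flox preOC 5, 15 without Bap1LysM preOC 4 and 12 without Bap1LysM preOC 5. Within replicates 1 to 3 edgeR called no gene at all, and so no neighbour. At an unadjusted p under 0.05 that fit had 25 of 110 neighbours and 2373 of 13611 genes. In replicates 4 to 6 alone 17 of 103 rose and 24 fell, 39.8% in all against 33.8% of all genes in that fit. In BMMs the count of 12 was 7 without Bap1LysM BMM 1, 2 without Bap1LysM BMM 2, and 0 without Bap1flox BMM 2 or BMM 3. Those fits without a Bap1flox library called few genes of any kind. They had 30 and 27 neighbours at an unadjusted p under 0.05. The fit of all BMM libraries had 37 of 103 neighbours and 3416 of 13028 genes at that limit. Of the 25 preOC calls, 12 held in every fit that left out one library.

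Around Sat2, a gene-dense stretch, every neighbour called in the main edgeR fits fell. In preOCs 10 of 37 fitted neighbours fell and 0 rose, where 8.68% of all genes fell and 7.12% rose. They were Trappc1, Rnf227, Wrap53, Tnfsfm13, Tnfsf12, Plscr3, Kctd11, Acap1, Acadvl and Dlg4. Dlg4, which encodes the postsynaptic scaffold PSD-95, was 4.35 ± 1.64 CPM (SD, n = 5) against 12.5 ± 2.06 (n = 6), a log2 change of -1.44 (edgeR adjusted p = 0.0019). Plscr3, a phospholipid scramblase gene, was 18.5 ± 7.38 against 45.0 ± 8.69 CPM, a change of -1.20 (edgeR adjusted p = 0.0054). Wrap53, which encodes a telomerase cofactor, changed by -0.78 (adjusted p = 0.014), and Acap1 by -0.74 (adjusted p = 0.010). The changes of Trappc1, Rnf227, Tnfsfm13 and Tnfsf12 had adjusted p-values of 0.045 to 0.050 and were lost with RLE factors. The Sat2 neighbour count fell to 6 without Bap1flox preOC 1, preOC 3, preOC 6 or Bap1LysM preOC 4, to 5 without Bap1flox preOC 2, preOC 5 or Bap1LysM preOC 6, and to 4 without Bap1LysM preOC 5. With the replicate block, under which 32.8% of all genes were called, 12 fell and 3 rose, and Rnf227 and Tnfsfm13 lost their calls. With DESeq2 12 fell and 2 rose, 37.8% in all against 22.5% of all genes. With voom 20 fell and 6 rose, 70.3% in all against 54.9% of all genes.

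In BMMs 6 of 38 Sat2 neighbours fell and 0 rose, where 4.01% of all genes fell and 1.31% rose. Nlgn2, which encodes the synaptic adhesion protein neuroligin 2, was 10.1 ± 1.71 CPM (SD, n = 3) against 30.2 ± 1.45 (n = 3), a log2 change of -1.56 (edgeR adjusted p = 0.011). Dlg4 changed by -1.18 (adjusted p = 0.020), Kctd11 by -0.82 (adjusted p = 0.016), Plscr3 by -0.80 (adjusted p = 0.012), Tnfsf12 by -0.79 (adjusted p = 0.016) and Tnfsf13 by -0.91 (adjusted p = 0.040). None of these BMM calls held in every fit that left out one library. Without Bap1flox BMM 2 or BMM 3, where few genes of any kind were called, no neighbour was called, and without Bap1LysM BMM 2 the count was 2. At an unadjusted p under 0.05 the fits without Bap1flox BMM 2 or BMM 3 had 11 and 12 neighbours. The fit of all BMM libraries had 14 of 38 neighbours and 3416 of 13028 genes at that limit.

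**Figure D4:**
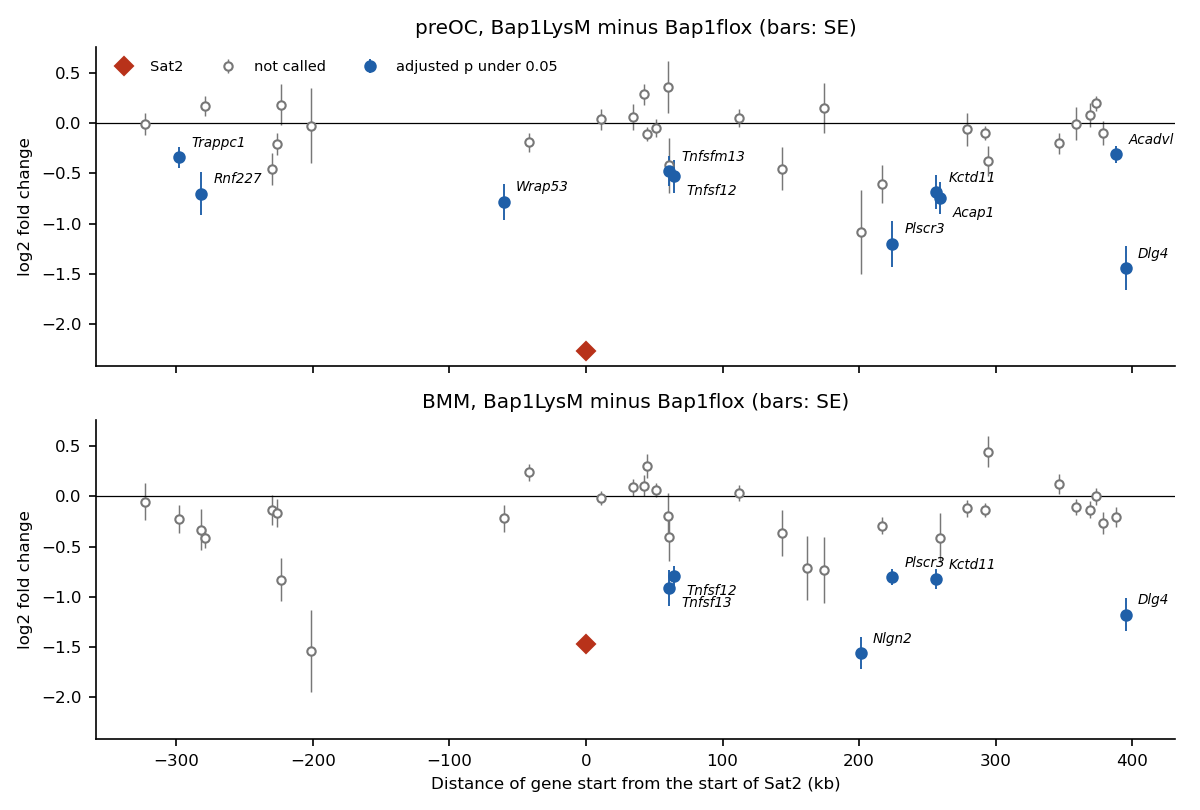
Log2 fold change with SE (y axis) of genes that start within 500 kb of Sat2, against the distance of their start from that of Sat2 in kb, in preOCs (top) and BMMs (bottom); filled blue points passed an adjusted p of 0.05. All 10 called genes in preOCs and all 6 in BMMs lie below 0, and Sat2 is shown as a diamond.

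Neighbours of the other genes changed in both directions. Hacl1, a peroxisomal lyase gene that shares bases with Colq, fell where Colq was higher. It was 2.07 ± 0.526 CPM (SD, n = 5) in Bap1LysM preOCs and 4.76 ± 0.885 (n = 6) in controls, a log2 change of -1.12 (edgeR adjusted p = 0.0060), and changed by -0.86 in BMMs (adjusted p = 0.034). Stab1, a scavenger receptor gene (0.59, adjusted p = 0.044), and Tnnc1, a troponin gene (0.96, adjusted p = 0.041), also lay near Colq and rose in preOCs, each called in 2 of 11 fits without one library, and Stab1 lost its call with the replicate block. Around Bap1, 20 neighbours were fitted in preOCs with Colq left out, of which 3 rose and 2 fell, against 7.12% and 8.68% of all genes. This count of 5 was 2 without Bap1flox preOC 2, 3, 4 or 5 or Bap1LysM preOC 5 or 6, and 3 without Bap1flox preOC 6 or Bap1LysM preOC 4. Those not also near Colq were Tmem110 (0.75, adjusted p = 0.0049) and Nek4 (-0.47, adjusted p = 0.043), whose call was lost with the block. Sh3bp5 rose near Colq and Bap1 in BMMs (0.55, adjusted p = 0.023).

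Near Susd2, 2 of 15 neighbours rose and 1 fell in preOCs, against 7.12% and 8.68% of all genes. Ggt5, a gamma-glutamyltransferase family gene, rose from 1.46 ± 0.615 to 6.62 ± 1.52 CPM in preOCs, a log2 change of 2.28 (edgeR adjusted p = 6e-04). Adora2a, the adenosine A2a receptor gene, rose by 1.04 (adjusted p = 0.0048), and Mmp11, a metalloproteinase gene, changed by -1.21 (adjusted p = 0.035) and was called in 4 of 11 fits without one library. The count of 3 was 7 without Bap1LysM preOC 1 and 7 with the replicate block (46.7%, against 32.8% of all genes). In BMMs Gstt3, a glutathione transferase gene, was the 1 neighbour of Susd2 called by edgeR (-1.16, adjusted p = 0.016), 6.25% of 16 against 5.32% of all genes. It was lost without Bap1flox BMM 2 or 3 or Bap1LysM BMM 2. Of the 16, voom and DESeq2 each called 4, where they called 1772 and 2065 of all 13028 genes. The replicate block called 5, all lower, 31.2% against 16.2% of all genes.

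Near Nptx1, 5 of 15 neighbours rose and 1 fell in preOCs, against 7.12% and 8.68% of all genes. Among them Rptoros rose by 2.12 (edgeR adjusted p = 0.0039) and Card14 by 1.15 (adjusted p = 0.026). Slc26a11, an anion transporter gene, rose by 1.09 (adjusted p = 0.0038) and Sgsh, a lysosomal sulfatase gene, by 0.52 (adjusted p = 0.0080). Ccdc40 changed by -1.03 (adjusted p = 0.037). Card14 was called in 6 of 11 fits without one library, and Ccdc40 in 5 of the 7 that fitted it. Rptoros, Slc26a11 and Sgsh were called in all 11. In BMMs no Nptx1 neighbour was called by edgeR, with 6 of 14 at an unadjusted p under 0.05, against 3416 of 13028 genes. Of the 14, voom called 2 and DESeq2 called 2, where they called 1772 and 2065 of all 13028 genes. Under the block 1 rose and 1 fell, 14.3% against 16.2% of all genes.

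Near Htra4, Adam9, a membrane metalloprotease gene, rose at both stages, by 0.50 in preOCs (adjusted p = 0.035) and 0.44 in BMMs (adjusted p = 0.042), but was called in 3 of 11 preOC fits and 1 of 6 BMM fits without one library. Plekha2 rose by 0.43 in preOCs (adjusted p = 0.014) and 0.44 in BMMs (adjusted p = 0.046), where it was called in 0 of 6 such fits. Near Mansc1, 1 of 8 neighbours was called at each stage, 12.5% against 15.8% of all genes in preOCs and 5.32% in BMMs. In preOCs the count of Mansc1 neighbours depended on the test. It was 3 (1 higher, 2 lower) both with the replicate block and with DESeq2, 37.5% against 32.8% and 22.5% of all genes, and 7 (2 higher, 5 lower) with voom, 87.5% against 54.9%. With a term for library set it was 4 (1 higher, 3 lower), 50% against 33.6%, and without Bap1flox preOC 6 or Bap1LysM preOC 1 or 2 it was 2. In BMMs it was 2, both lower, with the block, 25% against 16.2%. Lrp6, a Wnt coreceptor gene, rose in preOCs (0.74, adjusted p = 0.017), a call lost without Bap1LysM preOC 4 or 5. Crebl2 fell in BMMs (-0.85, adjusted p = 0.035) and was called in 0 of 6 fits without one library. None of the 7 neighbours of Dync2li1 was called at either stage by edgeR, DESeq2 or voom. At an unadjusted p under 0.05 edgeR had 0 of them in preOCs and 2 in BMMs, and with a term for library set 1 fell in preOCs.

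Partners of Dync2li1 in dynein-2 and intraflagellar transport (IFT), the traffic along cilia that builds them, are given next. Of 30 fitted genes, 9 fell and 0 rose in Bap1LysM preOCs. The median log2 difference was -0.36, against -0.01 over all genes, and 8.68% of all genes fell. Wdr35 and Wdr60 changed most. Wdr35, a subunit of the retrograde IFT-A complex, was 1.21 ± 0.474 CPM (SD, n = 5) against 4.49 ± 0.377 (n = 6), a log2 change of -1.83 (edgeR adjusted p = 0.00091). Wdr60, an intermediate chain of dynein-2, was 2.75 ± 1.27 against 9.67 ± 1.13 CPM, a change of -1.73 (edgeR adjusted p = 0.0017). Ift27 changed by -1.19 (adjusted p = 0.0075) and Ift80 by -1.11 (adjusted p = 0.0091), both subunits of the anterograde IFT-B complex. The other genes that fell were Wdr34, Ift22, Ift74, Wdr19 and Traf3ip1. Dync2h1, the heavy chain of the same motor, had a log2 difference of 0.46 (edgeR adjusted p = 0.13).

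The IFT count was 5 without Bap1LysM preOC 4 or preOC 5. Within replicates 1 to 3 edgeR called no gene at all, and so no IFT gene. At an unadjusted p under 0.05 that fit had 11 of 31 IFT genes and 2373 of 13611 genes. With the replicate block 14 fell and 3 rose, where 32.8% of all genes were called, and with voom 15 fell and 7 rose, where 54.9% were called. In BMMs 4 of 30 fell and 0 rose, with a median of -0.28 and 4.01% of all genes lower. Ift81 changed by -1.79 (edgeR adjusted p = 0.020), Wdr35 by -1.36 (adjusted p = 0.021), Ift74 by -0.65 (adjusted p = 0.043) and Ift172 by -0.53 (adjusted p = 0.036). The BMM count was 2 without Bap1flox BMM 1, and 0 without Bap1flox BMM 2, Bap1flox BMM 3 or Bap1LysM BMM 2. Few genes of any kind were called in the fits without Bap1flox BMM 2 or BMM 3. With the replicate block 9 fell and 1 rose in BMMs, where 16.2% of all genes were called.

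**Figure D5:**
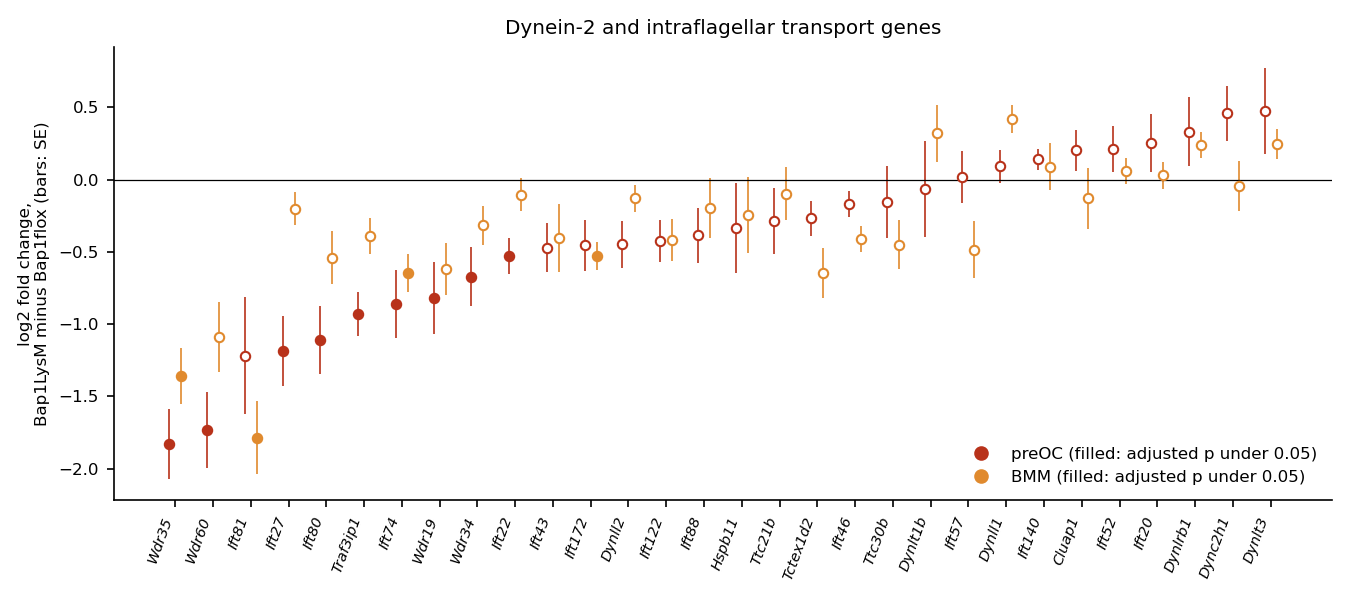
Log2 fold change with SE (y axis) between genotypes of 30 dynein-2 and IFT genes, ordered by the preOC value, in preOCs and BMMs; filled points passed an adjusted p of 0.05. The 9 filled preOC points and the 4 filled BMM points lie below 0.

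Among genes of polyamine metabolism, the setting of the enzyme related to Sat2, 2 of 17 rose and 4 fell in preOCs, where 7.12% of all genes rose and 8.68% fell, with a median log2 difference of -0.25. Sat1, the spermidine and spermine acetyltransferase gene, rose by 0.55 (adjusted p = 0.033) where Sat2 was lower, and held its call in 3 of 11 fits without one library. Paox, a polyamine oxidase gene, changed by -0.71 (adjusted p = 0.012), and Amd1, a decarboxylase gene of spermidine synthesis, by -0.52 (adjusted p = 0.014). Oaz2 and Dohh also fell. The count of 6 was 3 without Bap1flox preOC 1, 2, 3, 4 or 5 or Bap1LysM preOC 6, and 2 without Bap1LysM preOC 4 or 5. It was 12 (3 higher, 9 lower) with the replicate block, under which 32.8% of all genes were called.

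In BMMs 1 of 18 polyamine genes rose and 2 fell, against 1.31% and 4.01% of all genes. Sms, the spermine synthase gene, rose by 0.68 (adjusted p = 0.042), Oaz2, an antizyme gene, changed by -0.97 (adjusted p = 0.016) and Paox by -0.68 (adjusted p = 0.032). This count of 3 was 1 without Bap1flox BMM 1 or either of Bap1LysM BMM 1 and BMM 2. It was 0 without Bap1flox BMM 2 or BMM 3, where few genes of any kind were called. With the replicate block, under which 16.2% of all genes were called, it was 8.

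The relatives and partners of the other genes were few, and their counts in preOCs stand against 7.12% of all genes higher and 8.68% lower. Htra1, a secreted protease of the same family as Htra4, rose from 31.8 ± 5.78 to 54.8 ± 11.4 CPM in preOCs, a log2 change of 0.86 (edgeR adjusted p = 0.0026), and was 1 of 3 fitted. Susd3 (0.80, adjusted p = 0.0056) and Susd6 (0.71, adjusted p = 0.0064) rose, 2 of 3 fitted. Nptxr, the membrane-bound receptor form of the neuronal pentraxins, went the other way from Nptx1, with 12.6 ± 7.13 against 31.1 ± 6.24 CPM and a change of -1.24 (edgeR adjusted p = 0.012), 1 of 2 fitted. Both fitted MANSC-domain genes fell where Mansc1 was lower, Spint1 by -1.23 (adjusted p = 0.0016) and Lrp11 by -1.45 (adjusted p = 0.019). Lrp11 lost its call without Bap1LysM preOC 4 or preOC 5. In BMMs none of the 10 fitted genes of these 4 families was called by edgeR, DESeq2 or voom, with 1 of them, a pentraxin gene, at an unadjusted p under 0.05 by edgeR and 1 pentraxin gene called with the replicate block.

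Of 9 genes for anchoring cholinesterase and building the endplate, 4 passed the filter and none was called in preOCs by edgeR, which called 15.8% of all genes. At an unadjusted p under 0.05 edgeR had 1 of the 4, against 3939 of 12929 genes. DESeq2 called 0, against 22.5% of all genes, and voom called 2, 50% against 54.9% of all genes. Ache and Bche, the cholinesterases that Colq anchors, did not pass the filter at either stage, nor did Prima1, Musk and Dok7. In BMMs Rapsn, an endplate scaffold gene, was 8.27 ± 3.26 against 26.0 ± 2.96 CPM, a log2 change of -1.64 (edgeR adjusted p = 0.029), which was lost without Bap1flox BMM 1, 2 or 3 or Bap1LysM BMM 2. Under the replicate block 3 of the 4 fell in BMMs, where 16.2% of all genes were called.

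Last, the genes whose log2 CPM followed each of the 7 most closely over the 17 libraries were listed by Pearson's r among 13380 genes, as a description. The libraries share their group and library set, so such values also hold the group differences. Colq was nearest to Ankrd11 (0.93), Tchh (0.92) and Susd2 (0.92), and Susd2 to Ankrd11 (0.94), Colq (0.92) and Trp53i11 (0.90). Htra4 was nearest to Pfn2 (0.95), Mfsd14b (0.93) and Ccng1 (0.92). Nptx1 was nearest to Igkv10-96 (0.91), an immunoglobulin segment, Tulp4 (0.90) and Prkdc (0.89). Mansc1 was nearest to Zfp251 (0.95), Nipsnap1 (0.94) and Angel1 (0.94).

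Dync2li1 had the closest companions, Pmvk, Arl3 and Tm7sf3, each at 0.98. Arl3 encodes a small GTPase of cilia and Pmvk an enzyme of the mevalonate pathway. Sat2 was nearest to Kif5a (0.95), Adat2 (0.94) and Wdr35 (0.94). Among the 7 genes themselves, r ran from 0.62 (Colq and Nptx1) to 0.92 (Colq and Susd2) within the higher genes, and from 0.84 (Dync2li1 and Sat2) to 0.91 (Mansc1 and Sat2) within the lower genes. Each set was chosen for a shared direction in these libraries, so positive values within it follow from the choice. With the 4 group means removed, none of the 21 gene choices remained.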

How the data were processed

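The authors aligned paired-end reads of poly-A selected RNA with STAR 2.5.1a to the GRCm38 assembly and used featureCounts 1.4.6-p5 to count reads that mapped to 1 place and 1 gene; the strand setting was not given in the sources used here. The deposited values were raw counts, CPM and RPKM per gene. The deposited CPM equalled the count over the library total, and RPKM the CPM over gene length in kb. The 7 genes and all lists were chosen with earlier results of these data known. Gene symbols came from the GENCODE annotation of GRCm38 (97.5% of IDs matched), and 355 ribosomal RNA genes were left out of the fits.

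Counts were tested with edgeR 4.0.16 (R 4.3.3, TMM factors, quasi-likelihood F test, Benjamini-Hochberg adjusted p under 0.05), as 2-group comparisons in preOCs and in BMMs after a filter of CPM above 1 in at least 4 of 11 and 2 of 6 libraries. The RANKL contrasts came from 1 fit of replicates 1 to 3 of all groups (11 libraries, CPM above 1 in at least 2). No test is given for the 7 genes, since the fits use the libraries that chose them. Each SE is the absolute log2 difference over the square root of the F statistic. It is thus approximate, less sure where counts are near 0, and for the 7 genes it is a description only. Scripts were tested on simulated counts. P-values measure the spread between these libraries, which the labels do not tie to separate mice (the study's text calls the preOC samples biologically independent).

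The alternatives were voomWithQualityWeights (limma 3.58.1), DESeq2 1.42.0, RLE factors, no filter, a term for the library set, each set alone, a replicate block, all 17 libraries, and leaving out each library. Deviations from group means correlated between same-numbered libraries at 0.39 to 0.73 in preOCs (r over genes; within a library set -0.15 to 0.45), 0.39 to 0.54 in BMMs and 0.25 to 0.52 between stages of a genotype, so the block is printed beside counts it moved by over 1.5 times, while the main tests stayed unpaired. Pairing came from the data, not from the labels. Settings chosen after seeing the data were the fits without Bap1LysM preOC 1 and BMM 1, the replicate block for the neighbour count, and the list counts under each alternative. Genes were named by these rules: the 7 genes, Bap1, Lyz2, the 3 genes most like each (log2 CPM with a prior count of 2), called neighbours within 500 kb, up to 4 called genes per list (further called IFT and polyamine genes are named after their values were seen), and markers at 0. Some genes that met these rules are not reported here.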

Additional observations from a re-analysis of the deposited data

Results flagged for a closer look

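Nptx1 was 38.1 CPM in Bap1flox preOC 1, far from the other 5 Bap1flox preOC libraries, with a gap to the next of 0.697 of the group's range. Chance gives a gap past the limit used here, which this one exceeded, in about 1 in 20 groups. The library was still below all Bap1LysM preOCs.

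The RANKL difference of Colq had opposite signs in the genotypes, with a log2 value of -1.11 in Bap1flox and 2.30 in Bap1LysM cells. Every Bap1flox preOC library of replicates 1 to 3 was below the Bap1flox BMMs and every Bap1LysM one above the Bap1LysM BMMs. The difference between the genotypes was not tested, since it contains the contrast that chose the gene. The Bap1flox values rest on 0 to 8 reads per library.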

How the results depend on the processing

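The genotype difference kept its direction for all 7 genes in preOCs and 4 of the 5 fitted in BMMs, under all alternatives run. The genes were chosen by this difference, and the genotypes did not overlap for these genes. Their direction could therefore hardly change and is no support for the choice. Susd2 in BMMs changed sign (-0.05 to 0.70 without one library). Near-zero RANKL differences of Susd2 and Sat2 in Bap1flox and of Htra4 in Bap1LysM cells also changed sign. The count of called genes in preOCs (2043) was 7099 with voom, 4236 with the replicate block, 4349 with a term for library set, 4304 in replicates 4 to 6 only, 0 in replicates 1 to 3 only (2373 of 13611 at an unadjusted p under 0.05 by edgeR, no other tool run there), and 1071 to 3085 without one library. In BMMs (693) it was 1772 with voom, 2065 with DESeq2, 2107 with the block, and 4 to 756 without one library. The RANKL count in Bap1LysM cells (5308) was 2937 with voom and 3146 (without Bap1LysM preOC 2) to 6117 without one library. The count of called neighbours in preOCs (25) was 44 of 191 genes within 1 Mb, 63 with voom, 44 with the library set, 40 with the block and 12 to 32 without one library. In BMMs (12) it was 21 with voom, 25 with DESeq2, 24 with the block and 0 to 10 without one library. Of the 21 choices of a gene most like one of the 7, 5 remained with Spearman's rho and 0 with group means removed. The cause was not tested. Colq, Htra4, Mansc1, Dync2li1 and Sat2 rest on few reads in one genotype in preOCs. The SE of the 7 preOC fold changes ran from 0.28 (Nptx1) to 0.55 (Htra4).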
